A study of Mus musculus with 9 samples.

Results

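Cytochrome P450 genes of families 1 to 4 were followed across 9 mouse arrays. They were chosen as genes whose symbol is Cyp, a family digit from 1 to 4, lower-case letters and then only digits, with pseudogenes left out, where a probe set was annotated to that gene alone. This gave 65 of the 19938 genes tested: 3 of family 1, 43 of family 2, 6 of family 3 and 13 of family 4. Each had 1 such probe set. RefSeq lists 75 protein-coding genes of this pattern, of which 7 more were annotated only on probe sets shared with other genes and 3 were not analysed here.

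The arrays formed 3 groups of 3. AS cell lines are angiosarcoma lines (a cancer of vessel-lining cells), each derived independently by long culture of hepatic endothelial cells from Notch1 knockout mice with a visible tumour. KO livers came from MxCre Notch1 lox/lox mice, in which Cre under the interferon-responsive Mx promoter removes a Notch1 exon coding for the signal peptide. WT livers came from Notch1 lox/lox mice without Cre. All mice were C57Bl/6, and mice of both liver groups received 300 µg of poly(I:C), the inducer of Mx, on days 0, 3 and 6 from 4 weeks of age. Only KO mice carried Cre, so loss of Notch1 and presence of Cre cannot be told apart. The Mx promoter is not restricted to 1 liver cell type.

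P450 enzymes are haem proteins of the endoplasmic reticulum that add an oxygen atom to their substrates, using electrons passed on by a reductase. Members of families 1 to 3 are best known for the turnover of drugs, toxins and steroids, and those of family 4 for the hydroxylation of fatty acids and eicosanoids. Hepatocytes hold most of the P450 of the body, in zones: Cyp2e1 and Cyp1a2 lie around the central vein and Cyp2f2 around the portal tract. The aryl hydrocarbon receptor (Ahr) induces family 1, the nuclear receptors CAR (Nr1i3) and PXR (Nr1i2) induce members of subfamilies 2b, 2c and 3a, and PPAR-alpha (Ppara) induces subfamily 4a. In mouse liver several members also differ between the sexes.

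Promoters of 4 members are shown because these genes stand for the patterns described below. Cyp2e1 and Cyp2c29 were lower in every line than in every liver. Cyp2d26 was high in 1 line, and Cyp1b1 was high in the other lines. The windows are from RefSeq on GRCm38.p6, run 5′ to 3′ and reach from 250 bases before to 50 bases after the annotated start. They lie at chr7:140763569-140763868 (plus strand), chr19:39286835-39287134 (plus strand), chr15:82794196-82794495 (minus strand) and chr17:79715012-79715311 (minus strand), in the order printed. Capitals mark matches on either strand to TATAAA, known as the TATA box, to GCGTG, the core bound by the aryl hydrocarbon receptor, and to GTTAAT, a half-site of the liver factor HNF1.
Cyp2e1: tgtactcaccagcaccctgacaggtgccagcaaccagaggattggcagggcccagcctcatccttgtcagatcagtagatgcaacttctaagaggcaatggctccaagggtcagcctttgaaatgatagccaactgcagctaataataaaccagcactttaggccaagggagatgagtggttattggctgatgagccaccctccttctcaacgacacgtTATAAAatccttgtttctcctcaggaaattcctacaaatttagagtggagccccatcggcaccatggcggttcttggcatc
Cyp2c29: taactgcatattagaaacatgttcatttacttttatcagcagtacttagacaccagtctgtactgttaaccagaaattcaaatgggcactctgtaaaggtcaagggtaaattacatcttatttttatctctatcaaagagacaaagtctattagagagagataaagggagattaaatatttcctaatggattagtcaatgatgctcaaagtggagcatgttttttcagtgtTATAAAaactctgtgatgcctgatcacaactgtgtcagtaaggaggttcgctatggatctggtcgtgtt
Cyp2d26: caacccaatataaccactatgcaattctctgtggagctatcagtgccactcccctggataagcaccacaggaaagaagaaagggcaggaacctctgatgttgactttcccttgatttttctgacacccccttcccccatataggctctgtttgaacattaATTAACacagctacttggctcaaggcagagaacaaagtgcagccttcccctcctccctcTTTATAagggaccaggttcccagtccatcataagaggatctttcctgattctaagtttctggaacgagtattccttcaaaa
Cyp1b1: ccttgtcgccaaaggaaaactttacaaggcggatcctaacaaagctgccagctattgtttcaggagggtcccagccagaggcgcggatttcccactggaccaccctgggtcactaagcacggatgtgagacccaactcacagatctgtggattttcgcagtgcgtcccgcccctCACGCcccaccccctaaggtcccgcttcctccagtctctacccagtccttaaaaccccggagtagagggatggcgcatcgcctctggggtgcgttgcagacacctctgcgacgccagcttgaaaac

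The TATAAA match began 31 bases before the start in Cyp2e1 and 19 bases before it in Cyp2c29. Cyp2d26 held TATAAA and GTTAAT on the opposite strand, and Cyp1b1 held GCGTG on the opposite strand. RefSeq gave 61 windows for 54 of the 65 genes. TATAAA was found in 36.1% of these windows, against 13.6% of all 32851 windows. For GCGTG the shares were 23% and 32.4%, and for GTTAAT 6.56% and 7.1%. A match describes letters in the window and no more.

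Values are log2 expression, and levels were compared between arrays for the same probe set only. Close relatives in subfamilies 2b, 2c, 2d, 3a and 4a share much sequence, so a probe set named for 1 of them may also report others. Of the 65 genes, 21 lay below the median of all genes on all 9 arrays, against 39.2% of all genes. Among them were Cyp1a1, Cyp2g1, Cyp4x1, Cyp2j11, Cyp2j12 and Cyp2j13, and for such genes a low value may be background.

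Some facts of the arrays bear on all results. Notch1 stood at 7.84, 8.75 and 8.52 in KO livers 1, 2 and 3, against 11.69, 11.02 and 11.71 in WT livers, a difference of -3.10 with an exact two-sided permutation p of 0.1, the smallest that 3 against 3 arrays can give. The mean of 30 hepatocyte genes that are no P450s was 9.99, 12.17 and 8.55 in KO livers 1, 2 and 3, and 10.88, 12.07 and 12.14 in WT livers. In KO liver 3 the mean of 3 Y-linked genes was 8.11, against 4.16 to 4.30 in WT livers, and Xist stood at 4.96, against 11.46 to 11.83 in WT livers. The endothelial label of the lines was not borne out by its markers: 12 endothelial genes averaged 5.99 to 6.37 in the lines, against 11.93 to 12.34 in KO livers, with 10 or 11 of 12 below the array median in each line. The 7 measured bile duct genes averaged 10.77 to 11.16 in the lines, 6.65 to 7.67 in KO livers and 8.18 to 8.25 in WT livers. In each line 1 of 7, Epcam, was below the array median. Epcam stood at 5.71, 5.56 and 6.02 in AS lines 1, 2 and 3, against 5.33 to 5.49 in KO livers and 5.84 to 6.77 in WT livers. Among the livers, the endothelial genes averaged 11.92 to 12.05 in WT livers, and 6 macrophage genes averaged 10.96 to 11.65 over all livers. Both lists varied less between livers than the hepatocyte genes, which averaged 8.55 to 12.17. How much of the liver RNA came from hepatocytes was not tested, so the P450 levels may not be those of whole liver. In bulk samples fewer cells of a type and less RNA per cell cannot be told apart.

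KO livers were first set against WT livers, to ask whether P450 genes differ in liver after loss of Notch1. In limma 0 of 65 genes passed an adjusted p of 0.05 in either direction, as did 0% of all genes higher and 0% lower, and the smallest adjusted p of a P450 gene was 0.13. At an unadjusted p under 0.05, 0 were higher and 4 lower, against 17.3% and 5.17% of all genes. The sizes were large all the same. The log2 difference was negative for 59 of 65 genes, with a median of -0.46 (all genes 0.00), and 29 of 65 lay at least 1 log2 unit below WT, against 2.02% of all genes. Without KO liver 2, 16 of 65 genes fell and 0 rose, against 1.39% lower and 8.38% higher of all genes. With array weights 33 fell and 0 rose, against 9.22% lower and 19.6% higher, and the median was -0.91. KO liver 2 had the highest P450 mean of the KO livers, and the array weights gave it the least weight of them. Leaving it out keeps the KO livers where these genes were low. Counts and p-values from such fits of KO against WT livers, here and for single genes below, are therefore no support for a fall.

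**Figure D1:**
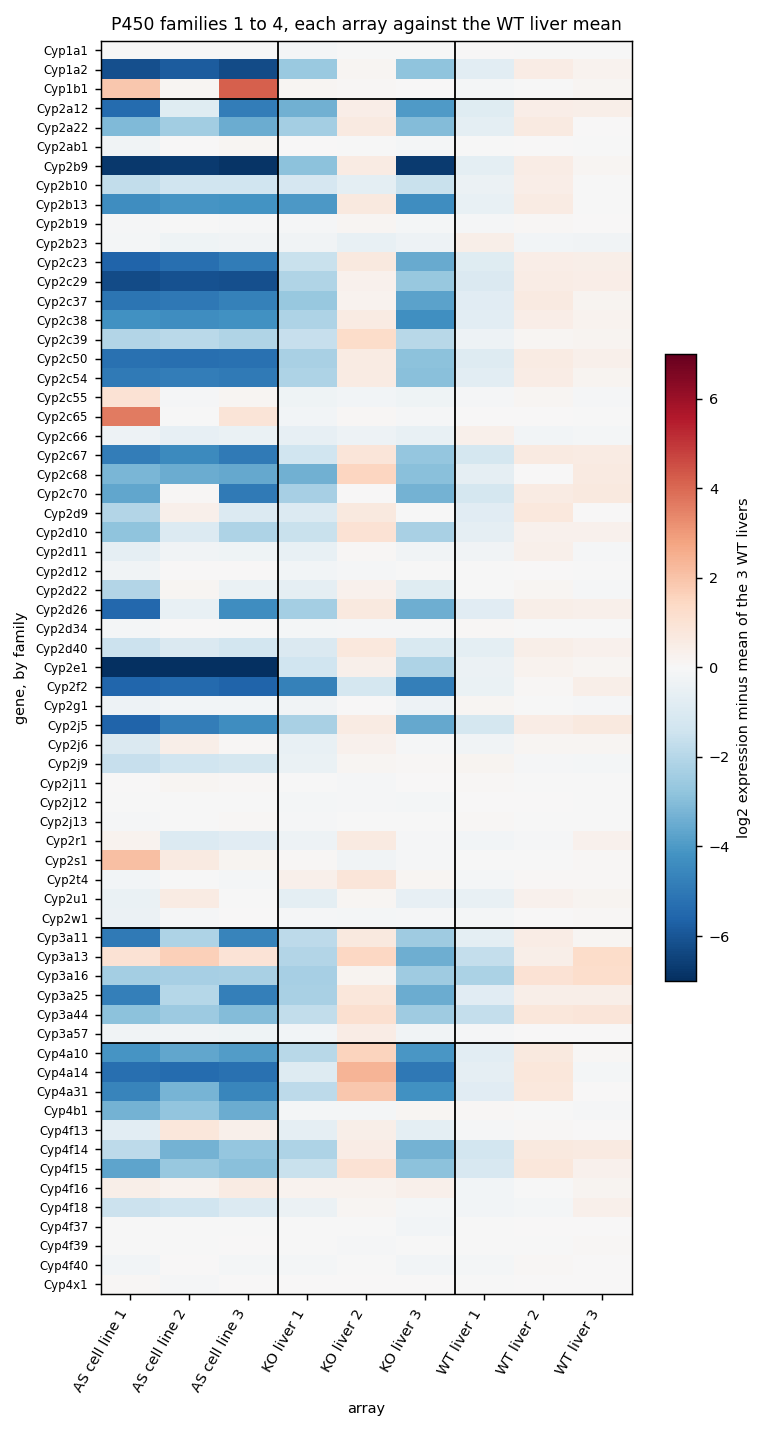
Log2 expression of the 65 P450 genes (rows, by family) on each array (columns: AS cell lines, KO livers, WT livers), coloured by the difference from the mean of the 3 WT livers. The mean over all 65 genes is -1.19, 0.38 and -1.68 in KO livers 1, 2 and 3, so KO livers 1 and 3 look low and KO liver 2 does not.

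The KO livers did not move together. KO liver 3 was the lowest of the 6 livers for 40 of 65 P450 genes, against 15% of all genes, and KO liver 1 for 16, against 15.9%. KO liver 2 was the highest for 29 of 65, against 16.5% of all genes. The mean of the 65 genes lay -1.19, 0.38 and -1.68 from the WT mean in KO livers 1, 2 and 3, and -0.47, 0.28 and 0.19 from it in WT livers. The hepatocyte genes took the same order within the KO livers, at -1.70, 0.48 and -3.14 in KO livers 1, 2 and 3 and -0.81, 0.37 and 0.44 in WT livers. With the hepatocyte list as a covariate the median P450 difference was -0.04, and 0 of 65 genes passed the test in that fit, against 0.00502% higher and 0% lower of all genes. All 30 hepatocyte genes themselves had negative genotype differences, so this fit cannot separate genotype from the level of hepatocyte genes.

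**Figure D2:**
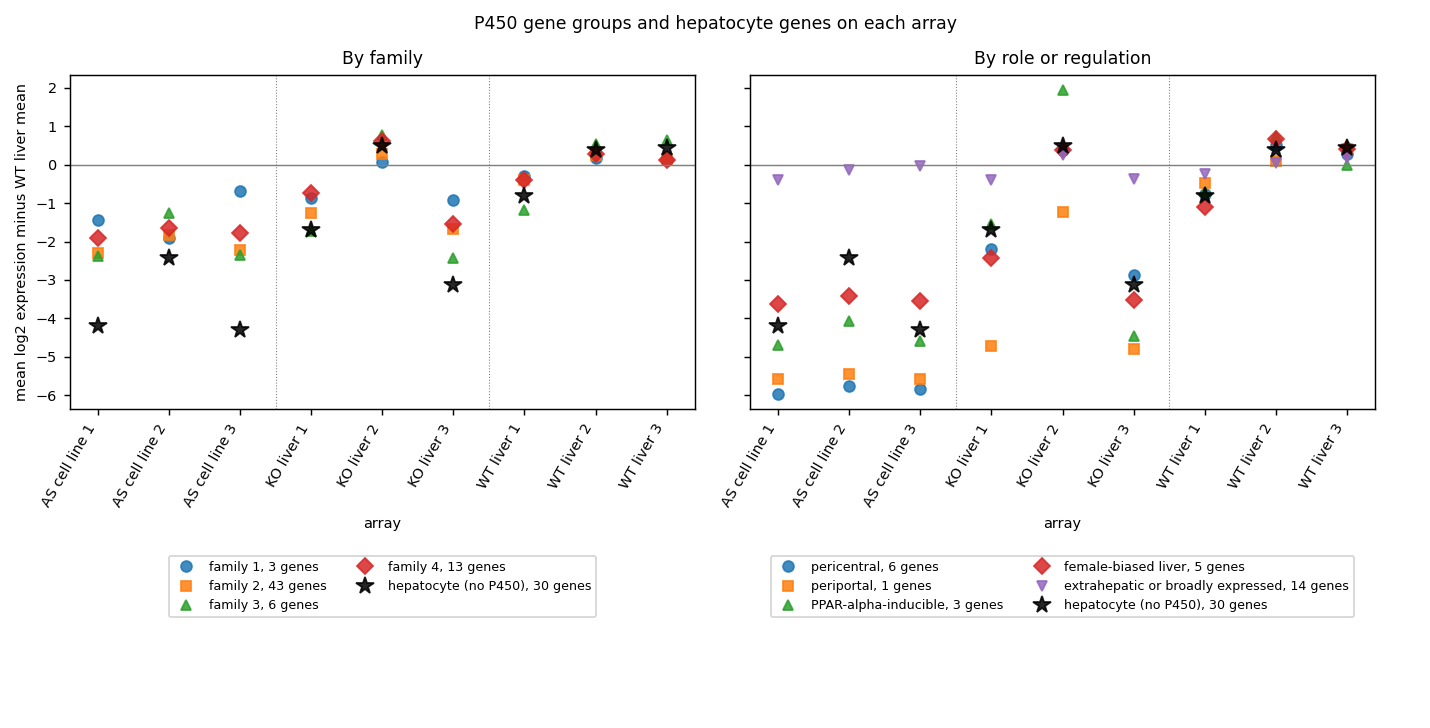
Mean log2 expression of gene groups on each array minus the WT liver mean, by P450 family (left) and by role or regulation (right), with the 30 hepatocyte genes as the black star. The mean of the 14 extrahepatic or broadly expressed P450 genes stays between -0.39 and 0.24 on all 9 arrays although its members move in opposite directions (in AS line 3 Cyp4b1 is at -3.47 and Cyp1b1 at 4.20), and the hepatocyte genes are at -3.14 in KO liver 3.

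Over the 6 livers, 31 of 65 P450 genes ranged over at least 2 log2 units, against 3.72% of all genes and 29 of 30 hepatocyte genes. This held for 1 of 3 genes of family 1, 20 of 43 of family 2, 5 of 6 of family 3 and 5 of 13 of family 4. The median range was 3.64 in family 3 and 0.74 in family 4.

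Among the targets of the aryl hydrocarbon receptor, Cyp1a2, which oxidises caffeine and aromatic amines, stood at 8.80, 11.53 and 8.57 in KO livers 1, 2 and 3, against 10.62, 11.90 and 11.61 in WT livers. The groups overlapped through KO liver 2. The difference was -1.74 (SE 0.865, adjusted p = 0.294) in limma, and -2.69 (adjusted p = 0.0316) without KO liver 2. Cyp1a1, inducible in many tissues, lay at 5.27 to 5.39 in KO livers and 5.39 to 5.40 in WT livers.

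Periportal Cyp2f2, which activates naphthalene, had the largest difference of the 65 genes. It stood at 7.06, 10.55 and 6.99 in KO livers 1, 2 and 3, against 11.29, 11.86 and 12.17 in WT livers, and the groups did not overlap. The difference of -3.58 (SE 1.01, adjusted p = 0.139) in limma was -4.75 (adjusted p = 0.0145) without KO liver 2. As a distance from the WT mean, Cyp2f2 minus the hepatocyte list was -3.01, -1.71 and -1.65 in KO livers 1, 2 and 3, and 0.33, -0.28 and -0.04 in WT livers. As a distance from the WT mean, Cyp2f2 was thus lower than the mean of the hepatocyte genes in each KO liver, a description made after the values were seen. In KO liver 2 the hepatocyte genes lay above their WT mean, at 0.48, and Cyp2f2 below its own, at -1.23. Hal, a member of the hepatocyte list, had a similar difference of -3.24 (SE 0.921, adjusted p = 0.139) in limma.

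The 6 measured pericentral genes stayed nearer to the hepatocyte list. On the same scale their mean was -0.49, -0.11 and 0.29 in KO livers 1, 2 and 3, and 0.04, 0.13 and -0.17 in WT livers. All 6 had negative genotype differences, with a median of -1.51, and 0 passed the test. Cyp2e1, which oxidises ethanol and paracetamol, stood at 11.78, 13.56 and 11.03 in KO livers 1, 2 and 3, against 12.78, 13.46 and 13.36 in WT livers, so that its highest value was in a KO liver. The drug-metabolising 2c genes of this list, Cyp2c29, Cyp2c37, Cyp2c50 and Cyp2c54, differed by -1.47, -2.05, -1.53 and -1.50, with adjusted p from 0.307 to 0.389. Cyp2c37 was at -3.18 (adjusted p = 0.0375) without KO liver 2 and at -1.21 without KO liver 3.

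Other hepatic genes of family 2 took the same order within the KO livers. Cyp2a12, a bile acid hydroxylase in mice, stood at 6.99, 10.84 and 6.41 in KO livers 1, 2 and 3, against 9.51, 10.86 and 10.76 in WT livers. Its difference was -2.30 (SE 1.23, adjusted p = 0.32), with -3.67 without KO liver 2 (adjusted p = 0.0257) and -1.46 without KO liver 3. Cyp2c38 had 5.95, 8.71 and 3.79 in KO livers 1, 2 and 3, against 7.37, 8.58 and 8.38 in WT livers, and its difference of -1.96 was -3.24 without KO liver 2 and -0.78 without KO liver 3. For both genes KO liver 2 lay among the WT livers or above them.

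Of the female-biased genes, Cyp2b9, a steroid hydroxylase, stood at 9.02, 12.48 and 5.19 in KO livers 1, 2 and 3, against 11.23, 12.40 and 12.04 in WT livers. KO liver 3 was at the level of the cell lines, 5.04 to 5.20. The difference of -2.99 (SE 1.8, adjusted p = 0.363) in limma was -4.79 without KO liver 2 and -1.14 without KO liver 3. Its relative Cyp2b13 stood at 5.13, 9.84 and 4.84 in KO livers 1, 2 and 3, against 8.65, 9.74 and 9.12 in WT livers, and differed by -2.57, or -4.19 (adjusted p = 0.0166) without KO liver 2 and -1.68 without KO liver 3. Here KO liver 1, which has no Y-linked expression, was nearly as low as KO liver 3. Cyp3a16 stood at 3.99, 6.49 and 3.81 in KO livers 1, 2 and 3, against 4.07, 7.34 and 7.51 in WT livers, with WT liver 1 among the low arrays. Its difference of -1.55 ranged from -2.66 without WT liver 1 to -0.94 with another single array left out. All 5 female-biased genes had negative differences, with a median of -1.55, and 0 passed the test.

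Male-biased Cyp2d9, a testosterone hydroxylase, stood at 6.91, 8.54 and 7.81 in KO livers 1, 2 and 3, against 7.06, 8.59 and 7.90 in WT livers. Its difference was -0.10 (SE 0.547, adjusted p = 0.92), with a 95% interval of -1.46 to 1.26. Cyp4a12a and Cyp4a12b, male-specific in mouse liver, end in a letter and are not among the 65. Cyp4a12a stood at 4.57, 4.69 and 7.62 in KO livers 1, 2 and 3, against 5.09, 4.52 and 4.67 in WT livers, and Cyp4a12b at 4.14, 4.39 and 6.88 in KO livers 1, 2 and 3, against 4.79, 4.27 and 4.11 in WT livers. Both were highest in KO liver 3, the array with Y-linked expression. The part of sex in these differences was not tested.

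Cyp2b10, the standard CAR target, stood at 5.51, 5.97 and 5.10 in KO livers 1, 2 and 3, against 6.25, 7.15 and 6.63 in WT livers. The groups did not overlap, and KO liver 2 was below every WT liver although its hepatocyte genes were the highest of the 6. The difference was -1.15 (SE 0.309, adjusted p = 0.13) in limma. Over the 65 genes the groups did not overlap for 2 higher and 6 lower genes, against 19.2% and 11.1% of all genes, so neither count exceeds the background share. Besides Cyp2f2 and Cyp2b10 the lower ones were Cyp2c55, Cyp2c66, Cyp2d34 and Cyp2j12, with differences from -0.48 to -0.11, and the higher ones were Cyp2t4, at 0.45, and Cyp4f16, at 0.28.

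In family 3, Cyp3a11, the main PXR target, stood at 8.79, 11.30 and 8.12 in KO livers 1, 2 and 3, against 9.92, 11.15 and 10.75 in WT livers. Cyp3a25 stood at 8.45, 11.49 and 7.24 in KO livers 1, 2 and 3, against 9.90, 11.12 and 11.12 in WT livers. KO liver 2 was the highest of the 6 for both. The difference of Cyp3a25, -1.66, was -2.87 (adjusted p = 0.0475) without KO liver 2 and -0.75 without KO liver 3.

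Cyp4a10, Cyp4a14 and Cyp4a31, PPAR-alpha targets that hydroxylate fatty acids at their far end, ranged over 5.64, 7.39 and 6.16 log2 units in the 6 livers, and Cyp2b9 over 7.30. Cyp4a14 stood at 9.46, 12.74 and 5.35 in KO livers 1, 2 and 3, against 9.71, 11.13 and 10.20 in WT livers. Its range of 7.39 was the largest of the 65 genes, and both extremes were KO livers. Cyp4a10 stood at 8.04, 11.53 and 5.89 in KO livers 1, 2 and 3, against 9.26, 10.65 and 10.04 in WT livers. The 3 genes, as a distance from the WT mean minus that of the hepatocyte list, were at 0.15, 1.47 and -1.30 in KO livers 1, 2 and 3, and 0.10, 0.36 and -0.47 in WT livers. As distances from the WT mean, they were thus above the hepatocyte genes in KO liver 2 and below them in KO liver 3. The difference of Cyp4a14 was -1.16 (SE 1.83, adjusted p = 0.711), that of Cyp4a10 was -1.50 (-3.02 without KO liver 2 and -0.20 without KO liver 3), and that of Cyp4a31 was -1.39, but 0.05 without KO liver 3. Cyp4f14, which hydroxylates leukotriene B4, differed by -1.64, or -2.73 without KO liver 2 and -0.81 without KO liver 3.

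Cyp4f15 took the hepatocyte order within the KO livers, at 7.75, 10.32 and 6.45 in KO livers 1, 2 and 3, against 8.21, 10.12 and 9.60 in WT livers. Cyp4b1 and Cyp4f18 did not follow that order. Cyp4b1, best known from lung, stood at 12.38, 12.38 and 12.63 in KO livers 1, 2 and 3, against 12.58, 12.48 and 12.42 in WT livers. Its difference was -0.02 (SE 0.0945, adjusted p = 0.885), with a 95% interval of -0.26 to 0.21. Cyp4f18, a leukotriene hydroxylase of neutrophils, lay at 6.71 to 7.24 in KO livers and 6.92 to 7.45 in WT livers.

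AS lines were next set against KO livers, which share the Notch1 deletion. Of the 65 genes 0 rose and 8 fell at an adjusted p of 0.05 in limma, against 11.4% higher and 10.1% lower of all genes, so the count of lower genes is near the background share. At an unadjusted p under 0.05 there were 0 higher and 13 lower, against 19.3% and 14.6% of all genes. The median difference was -0.80 (all genes 0.05), and 4 of 30 hepatocyte genes fell, with a median of -2.31. The groups did not overlap for 3 higher and 16 lower genes, against 24.1% and 16.7% of all genes, and 29 of 65 were lower by at least 1 log2 unit, against 9.36% of all genes. The genes that fell were Cyp1a2 of family 1, Cyp2c29, Cyp2c50, Cyp2c67, Cyp2e1 and Cyp2j9 of family 2, and Cyp4b1 and Cyp4f18 of family 4. With any 1 AS line left out, 5 fell, namely Cyp2c29, Cyp2e1, Cyp2j9, Cyp4b1 and Cyp4f18, against 9.06%, 8.79% and 8.83% lower of all genes without AS lines 1, 2 and 3. Without KO liver 2, 11 fell and 1, Cyp3a13, rose, against 8.84% lower and 8.4% higher of all genes, and the median difference was -0.07.

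Cyp2e1 had the largest difference. It stood at 5.23, 5.58 and 5.46 in AS lines 1, 2 and 3, against 11.78, 13.56 and 11.03 in KO livers, with every line below every liver. The difference was -6.70 (SE 0.654, adjusted p = 0.00239). Cyp2c29 stood at 5.34, 5.51 and 5.47 in AS lines 1, 2 and 3, against 9.49, 11.92 and 8.98 in KO livers, a difference of -4.69 (SE 0.785, adjusted p = 0.0128). Cyp1a2 stood at 5.20, 5.57 and 5.13 in AS lines 1, 2 and 3 and differed by -4.33 (SE 0.827, adjusted p = 0.0193), but missed the threshold with any 1 line left out (adjusted p from 0.0509 to 0.0592). Cyp2c50 and Cyp2c67, hepatic drug and lipid oxidases, were also lower. The difference was -3.71 (SE 0.91, adjusted p = 0.0415) for Cyp2c50, and for Cyp2c67 it was -3.68 (SE 0.906, adjusted p = 0.0419). Both missed the threshold with any 1 line or KO liver 1 left out, and Cyp2c50 also without KO liver 3 (adjusted p = 0.0506).

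The other genes that fell varied little between livers. Cyp4b1 stood at 9.17, 9.73 and 9.02 in AS lines 1, 2 and 3, against 12.38, 12.38 and 12.63 in KO livers, and remained above the array median in each line. Its difference was -3.16 (SE 0.206, adjusted p = 0.000619), the smallest adjusted p of the 65 genes. Cyp2j9, an arachidonic acid epoxygenase, stood at 5.09, 5.34 and 5.51 in AS lines 1, 2 and 3, against 6.27, 6.87 and 6.78 in KO livers, with a difference of -1.32 (SE 0.2, adjusted p = 0.00931). It lay below the array median on all 9 arrays. Cyp4f18 stood at 5.63, 5.74 and 6.15 in AS lines 1, 2 and 3, against 6.71, 7.24 and 6.99 in KO livers, with a difference of -1.14 (SE 0.199, adjusted p = 0.0145), and missed the threshold without KO liver 3 (adjusted p = 0.0611).

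**Figure D3:**
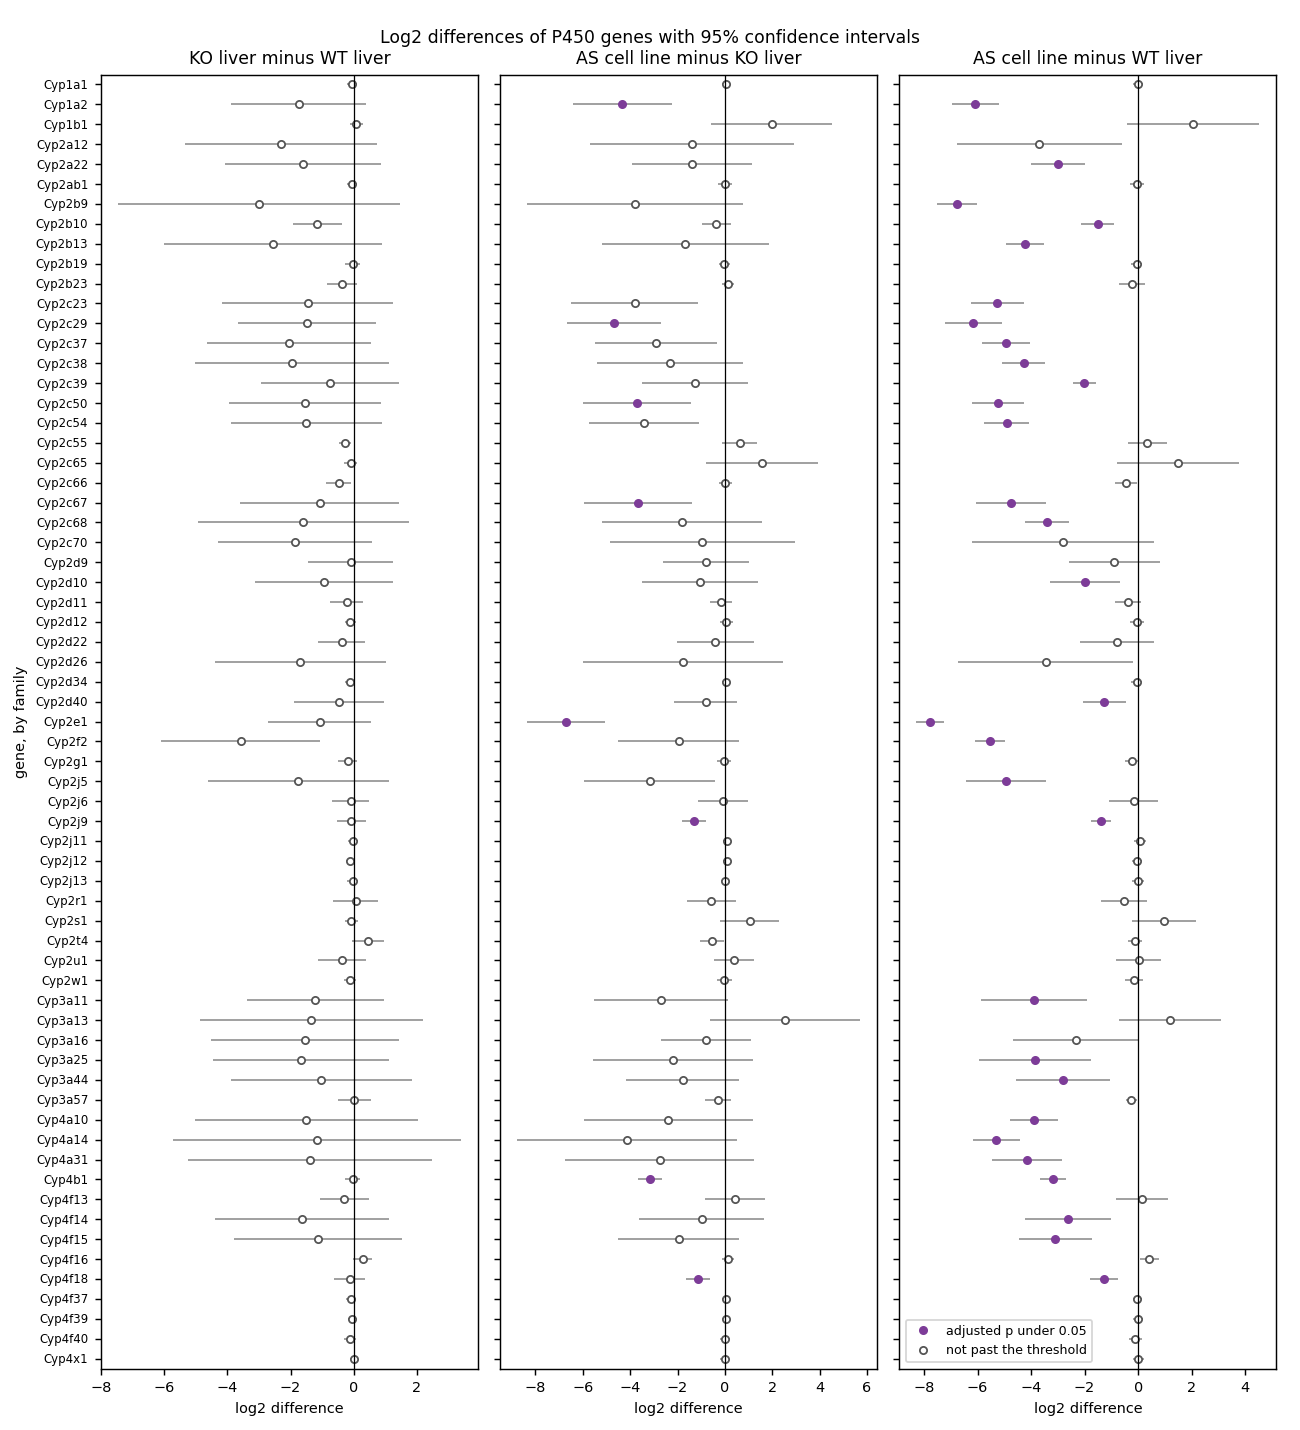
Log2 difference (point) and 95% confidence interval (line) of each P450 gene in the 3 comparisons, filled where the adjusted p was under 0.05. None is filled for KO minus WT liver, 8 are for AS cell line minus KO liver and 30 for AS cell line minus WT liver, all negative.

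Against WT livers 30 of 65 genes fell and 0 rose in the lines, against 11.1% lower and 17.6% higher of all genes. Under 75th percentile scaling the shares of all genes were 14.5% lower and 12.4% higher, with 32 P450 genes lower and 0 higher. At an unadjusted p under 0.05, 1 was higher, against 24.7% of all genes. The median difference was -1.28 (all genes 0.02). The groups did not overlap for 2 higher and 34 lower genes, against 28.3% and 19.5% of all genes, and 34 of 65 were lower by at least 1 log2 unit, against 9.23%. By family 1 of 3, 19 of 43, 3 of 6 and 7 of 13 fell in families 1, 2, 3 and 4, and 18 of 30 hepatocyte genes fell. The same 3 lines serve in both comparisons, so these are no independent repeats.

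All 6 pericentral genes fell, as did Cyp2f2, Cyp4a10, Cyp4a14, Cyp4a31 and 4 of 5 female-biased genes. For Cyp2e1 the difference from WT livers was -7.77 (SE 0.21, adjusted p = 1.78e-05). Cyp2b9 stood at 5.11, 5.20 and 5.04 in AS lines 1, 2 and 3, against 11.23, 12.40 and 12.04 in WT livers, with a difference of -6.78 (SE 0.301, adjusted p = 8.24e-05). Cyp2f2 stood at 6.21, 6.34 and 6.19 in AS lines 1, 2 and 3, with a difference of -5.53 (SE 0.231, adjusted p = 6.66e-05). In these genes all lines lay below the array median, at levels that may be background, so a true difference may be larger. Cyp4a14 stood at 5.06, 4.98 and 5.10 in AS lines 1, 2 and 3, with a difference of -5.30 (SE 0.357, adjusted p = 0.000369). Cyp4a12a and Cyp4a12b, outside the 65, did not pass the test, with positive differences of 1.54 (SE 0.907, adjusted p = 0.272) and 1.67 (SE 0.966, adjusted p = 0.265). Among the lines both stood highest in AS line 3, at 8.43 and 8.32. Unlike KO liver 3, AS line 3 had a mean of 4.33 for the Y-linked genes and Xist at 12.0. Cyp2d10, Cyp2d40, Cyp3a11, Cyp3a25, Cyp3a44 and Cyp4f14 fell too, but each missed the threshold when some single arrays were left out.

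The lines differed from each other in which P450 genes were high. AS line 2 stood at least 1 log2 unit above both other lines for 8 of 65 P450 genes, against 2.44% of all genes and 12 of 30 hepatocyte genes. With 1 array per line these values carry no test. Cyp2c70, which makes muricholic acids in mice, stood at 7.63, 11.35 and 6.30 in AS lines 1, 2 and 3, against 8.93, 11.27 and 7.92 in KO livers. Cyp2d26 stood at 6.63, 11.66 and 7.82 in AS lines 1, 2 and 3, against 9.80, 12.83 and 8.74 in KO livers. For both, AS line 2 was within the range of the KO livers or above it. Cyp2a12 stood at 5.0, 9.51 and 5.55 in AS lines 1, 2 and 3, Cyp3a11 at 5.67, 8.46 and 5.97 and Cyp3a25 at 5.94, 8.69 and 5.94. The others of this set were Cyp2d9, Cyp2d10 and Cyp4a31. The hepatocyte genes averaged 7.49, 9.28 and 7.39 in AS lines 1, 2 and 3. Cyp2e1, Cyp1a2, Cyp2c29 and Cyp2b9 were below the array median in AS line 2 as in the other lines.

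**Figure D4:**
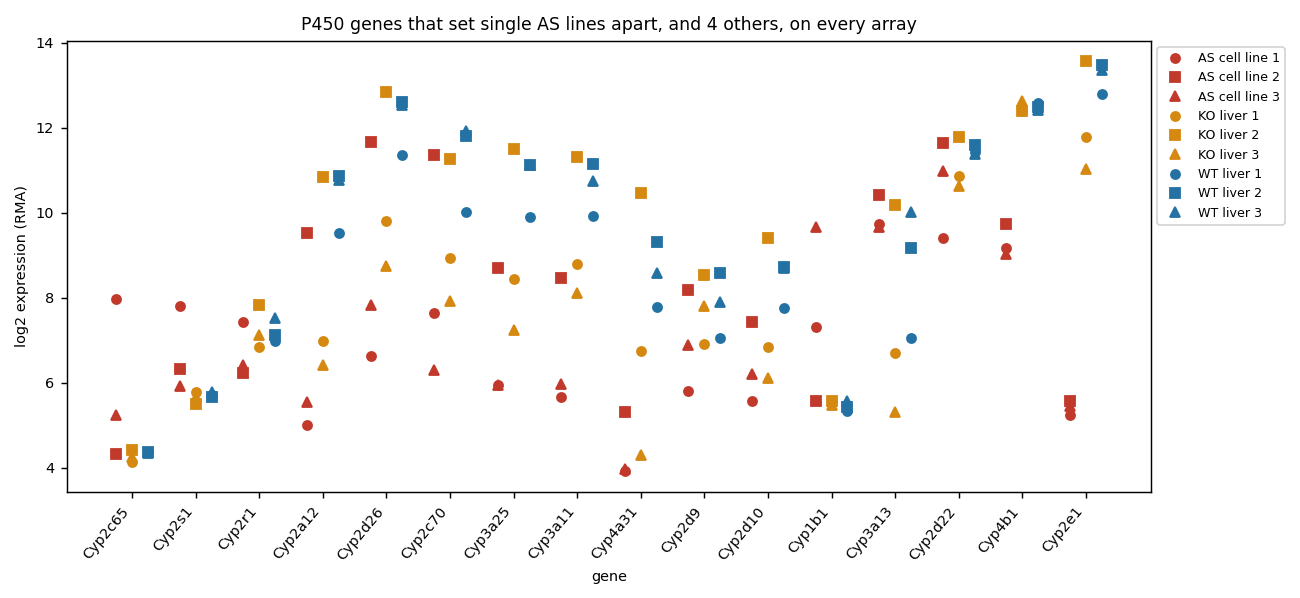
Log2 expression on every array of the P450 genes that lay at least 1 log2 unit above both other lines in 1 AS cell line, and of further genes for comparison (AS lines red, KO livers orange, WT livers blue, and circle, square and triangle for replicates 1, 2 and 3). The red square, AS line 2, is at 11.66 for Cyp2d26 and 11.35 for Cyp2c70, and at 5.58 for Cyp2e1.

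AS line 1 stood apart in this way for 3 of 65 genes, against 2.86% of all genes. Cyp2c65, best known from the gut, stood at 7.97, 4.32 and 5.25 in AS lines 1, 2 and 3, against 4.14 to 4.42 in KO livers and 4.35 to 4.36 in WT livers. Cyp2s1, a P450 of epithelia outside the liver, stood at 7.80, 6.33 and 5.92 in AS lines 1, 2 and 3, against 5.49 to 5.78 in KO livers. Cyp2r1, which hydroxylates vitamin D, was the other gene. AS line 1 lay at least 1 log2 unit below both other lines for 5 of 65 genes, against 1.35% of all genes: Cyp2d9, Cyp2d22, Cyp2d26, Cyp2j6 and Cyp4f13. AS line 3 stood apart for 1 of 65 genes, against 0.772% of all genes. This was Cyp1b1, an oestrogen-oxidising P450 of tissues outside the liver, at 7.32, 5.57 and 9.65 in AS lines 1, 2 and 3, against 5.48 to 5.57 in KO livers and 5.34 to 5.58 in WT livers. Its difference from WT livers was 2.06 (SE 0.994, adjusted p = 0.187), and 3.04 (adjusted p = 0.0354) without AS line 2. AS line 2 had the lowest value of the lines, so leaving it out keeps those where Cyp1b1 was high. The second p-value is therefore no support for a rise.

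Cyp3a13, a 3a gene also found in intestine, had the largest positive difference from KO livers. It stood at 9.73, 10.42 and 9.67 in AS lines 1, 2 and 3, against 6.71, 10.17 and 5.31 in KO livers and 7.05, 9.16 and 10.01 in WT livers. The lines were alike and the livers spread widely. The difference was 2.54 (SE 1.26, adjusted p = 0.231), and 3.93 (adjusted p = 0.013) without KO liver 2, which had the highest value of the KO livers. Leaving that array out keeps the KO livers where Cyp3a13 was low, so the second p-value is no support for a rise. Cyp2d22, a broadly expressed 2d gene, stood at 9.40, 11.63 and 10.99 in AS lines 1, 2 and 3, against 10.86, 11.78 and 10.63 in KO livers. Cyp4f13 and Cyp4f16, of the fatty acid hydroxylating 4f group, did not pass the test against KO livers. The difference of Cyp4f13 was 0.43 (SE 0.507, adjusted p = 0.617), with a 95% interval of -0.84 to 1.71. For Cyp4f16 it was 0.13 (SE 0.103, adjusted p = 0.45), with a 95% interval of -0.13 to 0.39.

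Genes that supply or regulate P450 enzymes were read against the shares of all genes in the same comparison, 11.4% higher and 10.1% lower. Of 13 measured redox and haem genes 2 rose and 1 fell against KO livers. Cyb5b, a cytochrome b5, rose by 0.99 (SE 0.176, adjusted p = 0.0151), and the haem-degrading Hmox1 fell, with a difference of -2.52 (SE 0.25, adjusted p = 0.00253). Of 21 measured regulators 1 rose and 4 fell against KO livers. Foxa2, a pioneer factor of endoderm, rose by 2.14 (SE 0.306, adjusted p = 0.00794), and the glucocorticoid receptor Nr3c1 fell, with a difference of -1.65 (SE 0.178, adjusted p = 0.00322). Hnf4a, a main activator of hepatocyte genes, stood at 10.95, 11.10 and 10.35 in AS lines 1, 2 and 3, against 7.80, 10.35 and 7.16 in KO livers. In WT livers it stood at 8.84, 10.53 and 10.35. Its difference from KO livers, 2.36 (SE 0.864, adjusted p = 0.121) in limma, did not pass the test. PXR (Nr1i2) stood at 8.28, 10.48 and 8.29 in AS lines 1, 2 and 3 and Ppara at 7.03, 9.72 and 6.52, both highest in AS line 2 among the lines. CAR (Nr1i3) did not pass the test against KO livers, with a difference of -1.20 (SE 0.793, adjusted p = 0.362) in limma. It fell against WT livers, as 11.1% of all genes did, with a difference of -1.35 (SE 0.262, adjusted p = 0.0142).

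Of 17 measured P450 genes of other families 1 rose and 2 fell in the lines against KO livers, against 11.4% higher and 10.1% lower of all genes, with a median difference of 0.04. The oxysterol hydroxylase Cyp39a1 rose, with 11.08, 11.60 and 11.27 in AS lines 1, 2 and 3, against 6.93, 8.60 and 6.84 in KO livers, a difference of 3.86 (SE 0.512, adjusted p = 0.00621). Cyp26b1 and Cyp7b1 fell, with differences of -2.75 (SE 0.635, adjusted p = 0.0347) and -2.67 (SE 0.226, adjusted p = 0.00145) in limma. Whether these families differ from families 1 to 4 was not tested.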

How the data were processed

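Whole-transcript Affymetrix arrays measured RNA of 3 AS cell lines, 3 KO livers and 3 WT livers. The deposited values are log2 expression made by the authors with RMA through oligo, per the submitters' processing notes, which name no versions. Of 35556 probe sets, 21789 had 1 gene symbol, 1621 several and 12146 were unnamed. 21698 of the named ones matched RefSeq (GRCm38.p6). The probe set of highest mean stood for each of 19938 genes.

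Each pair of groups was fitted on its 6 arrays with limma 3.58.1 (R 4.3.3, lmFit and eBayes, two-sided), and p-values were adjusted over all genes by Benjamini-Hochberg; the threshold was 0.05. The fit was tested on simulated data. Alternatives were 75th percentile scaling, repeated quantile normalization, a filter on dim genes, the mean of probe sets, intensity trend with robust estimation, array weights, all 9 arrays in one fit, the replicate block, the hepatocyte list as covariate and leaving out each array. Genes given per array were those of largest difference in each family and the members of lists by role. The members and lists were chosen with earlier results of these data known. The series' design gives 3 animals in each liver group and 3 lines derived separately. The extraction protocol in the labels names PHH without explaining it.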

Additional observations from a re-analysis of the deposited data

How the results depend on the processing

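The count of P450 genes called between KO and WT livers depended on KO liver 2. It was 0 in the reported fit, 16 without that array (range 0 to 16 when each array was left out) and 33 with array weights, which gave KO liver 2 0.315 and WT liver 1 0.274. The cause was not tested. Leaving out single arrays gave 5 to 12 genes for AS lines against KO livers, with 5 without each AS line. In these fits 6.46% to 9.06% of all genes were lower and 4.95% to 11.2% higher. Against WT livers there were 24 to 31 genes, with 7.35% to 10.5% of all genes lower and 9.69% to 17.5% higher. The only rises were Cyp3a13 against KO livers without KO liver 2 and Cyp1b1 against WT livers without AS line 2. The medians ranged over -0.73 to -0.20, -1.17 to -0.07 and -1.43 to -1.11 in the KO against WT, AS against KO and AS against WT comparisons when single arrays were left out. The values of -0.73 and -0.07 in the comparisons with KO livers are those without KO liver 2. With array weights the 3 medians were -0.91, -0.21 and -1.26. Under 75th percentile scaling the median of all genes was -0.18 in KO against WT and -0.19 in AS against WT, and that of the P450 genes was -0.64 and -1.49. With dim genes left out, which removes low P450 genes by construction, the medians of the 3 comparisons were -1.47, -2.08 and -3.69. Of single genes, the KO against WT difference of Cyp1b1 was 0.08 as reported and -0.10 under 75th percentile scaling, and that of Cyp4a31 was -1.39 as reported and 0.05 without KO liver 3 (range -3.04 to 0.05 when each array was left out). In one fit of all 9 arrays Cyp4f16 rose in AS lines against WT livers, by 0.41.

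Same-numbered KO and WT livers had correlations of 0.312, 0.43 and -0.393 in their deviations from the group means. Those of same-numbered AS lines and KO livers were 0.238, 0.339 and 0.0739. Differently numbered KO liver 3 and WT liver 1 reached 0.467. With 3 arrays a group such deviations depend on each other, so they can neither show nor exclude a pairing. The labels give a replicate number only. With the replicate block 0, 10 and 29 P450 genes passed in the 3 comparisons, against 0%, 8.57% and 9.58% lower of all genes, with medians of -0.46, -0.80 and -1.28. Over the alternatives for named genes, 162 of 180, 178 of 203 and 387 of 422 values kept direction and side of the threshold. Each P450 gene had 1 probe set, so the mean of probe sets could not change its difference. Most fits of KO against WT livers called none of all genes, so keeping the side of the threshold says little there. With 3 arrays a group, precision is limited by their number, and for genes below the array median signal over background limits what can be seen.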
